A study of Homo sapiens with 12 samples.

Results

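HCT116 cells given hydrogen peroxide (H2O2) together with an antibody called anti-Hsp60N were compared with HCT116 cells given control IgG alone, across all genes measured by RNA sequencing. HCT116 is an established line from a colon cancer. The antibody group (2 libraries) received anti-Hsp60N and 100 µM H2O2 for 8 h, and the IgG group (2 libraries) received IgG without H2O2. Between them stands a group given IgG and 100 µM H2O2 for 8 h (IgG+H2O2, 2 libraries), which shares the peroxide with the first and the IgG with the second. The same 3 treatments were applied to MDA-MB-231, an established breast cancer line, which gives 12 libraries in 6 groups of 2. HCT116 cells grew in McCoy 5a medium and MDA-MB-231 cells in DMEM, both with 10% fetal bovine serum, so line and medium differ together. No group given the antibody without H2O2 was analysed here, so this comparison carries the peroxide and the change of antibody at once. The antibody is named after Hsp60, a chaperonin of mitochondria whose gene is HSPD1. The labels explain neither its N nor whether the replicates came from separate cultures, so p-values measure only the spread between these libraries, which may be technical.

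The genes compared were those with a level of at least 1 TPM in at least 2 of the 12 libraries, without small nucleolar, Cajal body and microRNA genes. This left 13902 of the 23686 genes in the table, and no measured difference between groups entered the choice. TPM counts transcripts relative to all transcripts of a library, scaled to gene length, and differences are given as log2 fold changes of TPM + 1, antibody with H2O2 over IgG unless stated otherwise. On that scale the change of a gene of low level is understated. A gene is said to have risen or fallen where limma's test, fitted on all 12 libraries, gave a Benjamini-Hochberg adjusted p under 0.05.

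Hydrogen peroxide oxidises thiols of proteins and damages DNA, and cells answer it on several fronts. The transcription factor NRF2 drives genes of glutathione and thioredoxin metabolism, and p53 drives genes of cell cycle arrest and death. Kinases that phosphorylate the initiation factor eIF2α slow translation while favouring the messenger of ATF4, whose targets import and make amino acids and charge tRNAs. Heat shock factor HSF1 governs the cytosolic chaperones Hsp70, Hsp90 and their partners. Hsp60 itself folds proteins imported into mitochondria and has also been described on the surface of tumour cells and outside cells. HCT116 is known for functional p53, whereas MDA-MB-231 carries a mutant form.

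Promoters are shown for some genes that rose and some that fell, picked because they hold the letters searched for. The first 4 are the genes of largest rise among the ATF4 list and the amino acid transporters that hold TGATGNAA on either strand, the letters of the C/EBP-ATF response element that ATF4 binds, here in capitals. The sequences are RefSeq's, on GRCh38.p14, from 250 bases before to 50 bases after the start of the gene, written 5′ to 3′ on the strand of the gene. The expression values were made on hg19, so these coordinates belong to the sequences alone.
CHAC1, chr15:40953221-40953520, plus strand: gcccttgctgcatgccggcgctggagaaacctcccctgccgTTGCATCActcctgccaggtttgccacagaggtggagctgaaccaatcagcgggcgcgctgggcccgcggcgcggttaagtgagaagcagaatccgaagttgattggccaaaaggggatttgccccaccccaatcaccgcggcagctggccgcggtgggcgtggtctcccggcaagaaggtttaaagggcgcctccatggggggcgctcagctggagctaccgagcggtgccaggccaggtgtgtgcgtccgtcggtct
ATF3, chr1:212565157-212565456, plus strand: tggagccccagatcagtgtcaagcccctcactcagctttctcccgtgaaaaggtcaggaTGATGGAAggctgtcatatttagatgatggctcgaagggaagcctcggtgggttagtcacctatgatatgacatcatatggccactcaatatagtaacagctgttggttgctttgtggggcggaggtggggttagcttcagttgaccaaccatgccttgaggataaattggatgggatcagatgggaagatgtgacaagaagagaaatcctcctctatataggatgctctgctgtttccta
SLC7A1, chr13:29595639-29595938, minus strand: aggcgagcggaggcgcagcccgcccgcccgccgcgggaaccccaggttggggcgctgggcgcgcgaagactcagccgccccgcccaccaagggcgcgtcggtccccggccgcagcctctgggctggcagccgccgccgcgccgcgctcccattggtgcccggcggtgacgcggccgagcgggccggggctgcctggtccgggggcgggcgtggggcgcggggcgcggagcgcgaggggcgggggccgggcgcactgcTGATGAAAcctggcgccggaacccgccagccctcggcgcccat
SLC3A2, chr11:62881449-62881748, plus strand: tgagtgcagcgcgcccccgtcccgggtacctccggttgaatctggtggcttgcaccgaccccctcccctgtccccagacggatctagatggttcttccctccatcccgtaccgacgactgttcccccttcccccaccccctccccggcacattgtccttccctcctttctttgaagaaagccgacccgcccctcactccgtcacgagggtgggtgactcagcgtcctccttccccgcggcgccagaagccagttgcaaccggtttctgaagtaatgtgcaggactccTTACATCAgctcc
The letters began 209 bases before the start in CHAC1 and 191 bases before it in ATF3. They began at transcript position 8 in SLC7A1 and at position 38 in SLC3A2. Of all 27305 promoters of 300 bases, 3.67% hold them. Among the ATF4 list and the amino acid transporters, they stood in 6 of 21 risen genes that have a promoter in the RefSeq table, in 1 of 2 fallen genes and in 0 of 9 genes that did not pass the test.

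The next 3 promoters belong to fallen chaperone genes that hold a heat shock element, in capitals. It was searched as GAA, any 2 bases, TTC, any 2 bases and GAA, or the same run starting and ending with TTC. Each form is the other's reverse complement, so both strands are covered, and overlapping matches were counted. They were picked after their values were seen.
HSPA8, chr11:123062087-123062386, minus strand: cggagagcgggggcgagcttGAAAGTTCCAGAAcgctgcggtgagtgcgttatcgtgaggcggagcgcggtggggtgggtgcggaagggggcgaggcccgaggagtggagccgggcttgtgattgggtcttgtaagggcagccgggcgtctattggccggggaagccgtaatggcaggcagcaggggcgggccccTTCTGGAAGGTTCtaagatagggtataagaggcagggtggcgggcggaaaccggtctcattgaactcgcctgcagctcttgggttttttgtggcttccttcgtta
DNAJA1, chr9:33025023-33025322, plus strand: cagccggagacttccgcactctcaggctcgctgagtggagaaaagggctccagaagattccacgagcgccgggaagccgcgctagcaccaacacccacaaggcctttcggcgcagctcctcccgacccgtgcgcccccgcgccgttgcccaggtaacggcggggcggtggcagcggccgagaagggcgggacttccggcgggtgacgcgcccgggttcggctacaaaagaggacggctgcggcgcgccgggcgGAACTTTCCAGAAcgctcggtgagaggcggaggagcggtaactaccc
CHORDC1, chr11:90223000-90223299, minus strand: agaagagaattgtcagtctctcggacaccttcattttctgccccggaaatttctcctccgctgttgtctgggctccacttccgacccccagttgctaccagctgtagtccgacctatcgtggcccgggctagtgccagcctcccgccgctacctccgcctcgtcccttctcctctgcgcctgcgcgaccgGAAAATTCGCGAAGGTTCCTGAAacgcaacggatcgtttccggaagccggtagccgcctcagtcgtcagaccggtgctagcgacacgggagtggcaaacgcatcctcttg
HSPA8 holds the element 230 and 55 bases before the start, DNAJA1 at transcript position 4, and CHORDC1 as 3 overlapping matches 60, 55 and 50 bases before the start. The element stands in 0.487% of all promoters. It was found in 3 of 25 fallen genes of the Hsp70, Hsp90 and DNAJ lists that have a promoter in the table (these 3), in 2 of 14 that did not pass and in 0 of 3 that rose. HSPA1B and HSPA1A, which fell furthest in these lists, were not among the genes with a match. A match describes the letters in this window and is not a measured binding site.

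The HCT116 label was checked against marker genes. Of 16 colon epithelial markers, 12 passed the filter. Their list summed to 6139 and 6265 TPM in antibody with H2O2 libraries of HCT116, against 6362 and 6461 TPM in IgG libraries. In MDA-MB-231 the list summed to 1918 and 1957 TPM with antibody and H2O2, against 2076 and 2095 TPM under IgG. CDX1, VIL1, LGALS4 and CDH17 of that list did not pass the filter. The 14 mesenchymal markers summed to 578 and 562 TPM with antibody and H2O2 in HCT116, against 535 and 553 TPM under IgG. Of these, 7 were under 1 TPM in all 4 libraries. The list summed to 3778 and 3804 TPM in the antibody with H2O2 libraries of MDA-MB-231, against 4139 and 4328 TPM under IgG. VIM of that list was at 5.27 and 5.56 TPM in the antibody with H2O2 libraries of HCT116, against 5.23 and 5.06 TPM under IgG. Of 10 mesenchymal markers that passed the filter, 3 rose, where 16.8% of all genes rose. Of these 3, AXL (0.49) alone kept its call in every alternative analysis. Of 12 fibroblast and endothelial markers, 3 were at 0 in all 4 libraries and 10 were under 1 TPM, and the list summed to 16.0 and 17.0 TPM with antibody and H2O2, against 10.3 and 12 TPM under IgG. Most of that difference was ACTA2, smooth muscle actin, at 9.30 and 9.82 TPM against 4.16 and 3.44 TPM under IgG. Of 12 blood cell markers, 3 were at 0 and 10 under 1 TPM, and the sums were 29.4 and 28.0 TPM against 23.1 and 21.6 TPM under IgG, mostly CD68. The part of these markers in the results was not tested. Each of the 12 libraries had between 12411 and 12653 genes at 1 TPM or more, and its top 10 genes made up 6.53% to 7.49% of all TPM. Depth is unknown, because TPM keeps none, and counting intervals are therefore not given.

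Antibody with H2O2 moved a large share of the HCT116 transcriptome, mostly by small steps. Of 13902 genes, 4782 (34.4%) passed the test, with 2338 (16.8%) higher and 2444 (17.6%) lower than under IgG. Counts of risen and fallen list members in HCT116 are to be read beside these shares of 16.8% and 17.6%. The median change of the risen genes was 0.41 on the log2 scale and that of the fallen genes was -0.32. Changes of at least 2-fold (153 genes, 1.1%) were uneven in direction, with 141 genes (1.01%) higher and 12 genes (0.0863%) lower. The median over all genes was -0.0012. In every gene that passed, both antibody with H2O2 libraries lay on the same side of both IgG libraries, as they did in 66.1% of all genes. Where groups of a called gene are said below to lie apart or not to overlap, this adds no support to its call. Leaving out the second antibody with H2O2 library left 1527 higher and 1419 lower, and leaving out the second IgG library left 1568 lower. Without the first antibody with H2O2 library, 1620 were lower. These are bulk cultures, in which fewer cells of a state and less RNA per cell cannot be told apart.

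**Figure D1:**
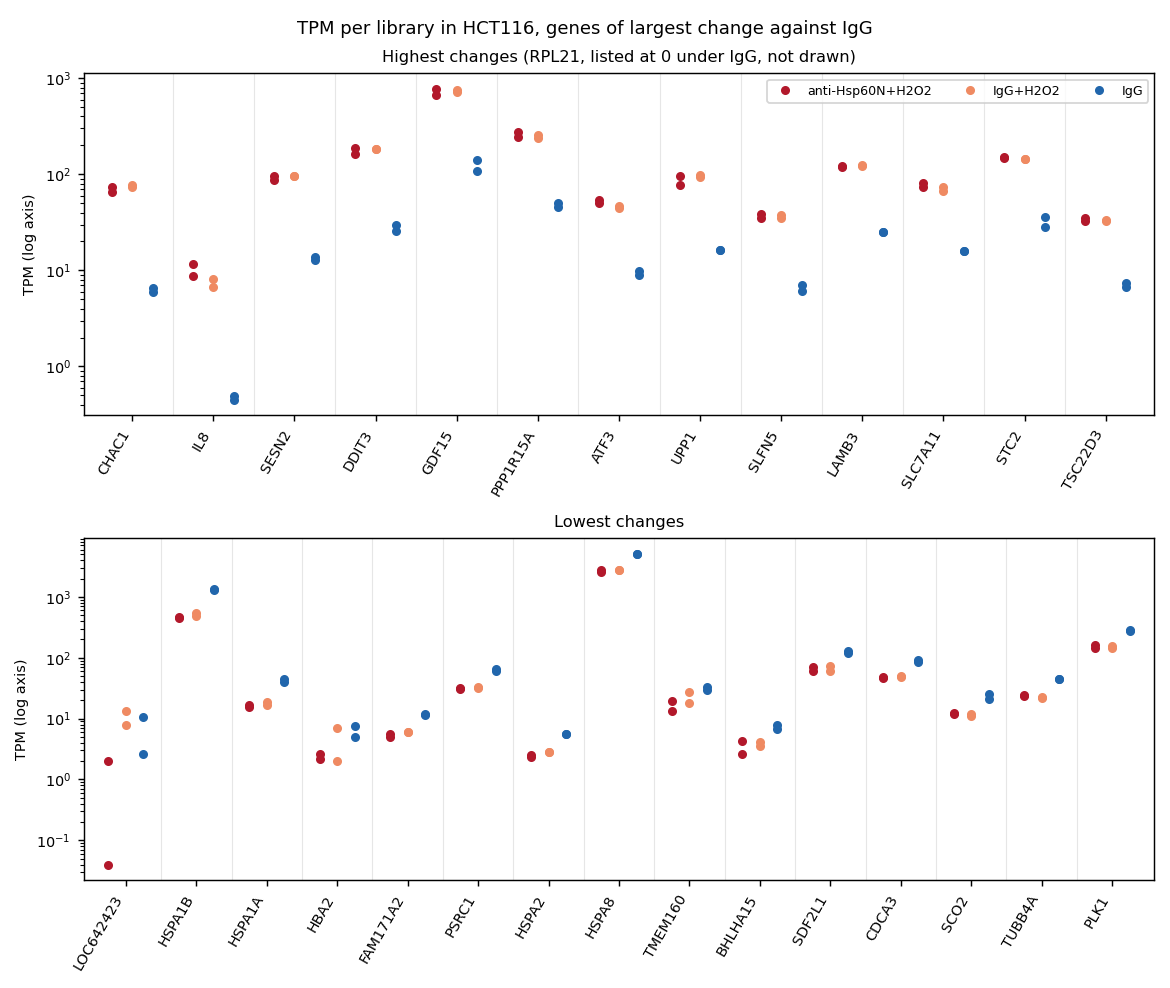
TPM of each HCT116 library on a log axis for genes among those of largest rise (upper panel) and largest fall (lower panel) against IgG, with anti-Hsp60N+H2O2 at left, IgG+H2O2 in the middle and IgG at right of each gene. CHAC1 stood at 66.2 and 72.9 TPM with anti-Hsp60N+H2O2, against 6.57 and 5.92 TPM under IgG, and HSPA8 at 2792 and 2558 TPM, against 5155 and 5077 TPM. RPL21, listed at 0 under IgG, is not drawn.

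Several of the genes of largest rise belong to the ATF4 pathway. CHAC1, which degrades glutathione, had 66.2 and 72.9 TPM with antibody and H2O2, against 6.57 and 5.92 TPM under IgG, a log2 fold change of 3.28 ± 0.10 (SE, adjusted p = 4.55e-09). DDIT3, the transcription factor CHOP, had 163 and 187 TPM, against 26.0 and 29.6 TPM under IgG (2.61, adjusted p = 2.81e-08). Both antibody libraries of each gene lay far above both IgG libraries. PPP1R15A, the regulatory subunit that brings a phosphatase to eIF2α, had 245 and 273 TPM, against 50.6 and 45.6 TPM under IgG (2.40, adjusted p = 4.55e-09). ATF3, a stress-induced repressor, had 54.2 and 50.7 TPM, against 9.89 and 8.93 TPM under IgG (2.36, adjusted p = 7.22e-08). These groups, too, lay far apart. TRIB3, a pseudokinase that restrains ATF4, had 155 and 173 TPM, against 39.1 and 38.3 TPM under IgG (2.05). STC2, a secreted glycoprotein, had 146 and 150 TPM, against 35.6 and 28.4 TPM under IgG (2.19). ATF4 itself had 970 and 1010 TPM, against 509 and 457 TPM under IgG (1.04, adjusted p = 3.38e-07). Its rise was smaller than that of the targets just named, which limma did not compare with one another. Of 18 regulators and targets of ATF4, 11 rose and 1 fell, with a median of 0.82. The one that fell was EIF2AK4, the kinase GCN2 that senses uncharged tRNA, at 32.2 and 32.7 TPM against 40.6 and 44.0 TPM under IgG (-0.37).

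Genes that make amino acids rose in part. Of 15 genes of serine, one-carbon, asparagine and proline synthesis, 9 rose and 2 fell (median 0.50). ASNS, asparagine synthetase, had 369 and 377 TPM with antibody and H2O2, against 166 and 169 TPM under IgG (1.15 ± 0.05, SE, adjusted p = 4.64e-08). PSAT1, of serine synthesis, had 397 and 411 TPM, against 202 and 193 TPM under IgG (1.03). GOT1, which makes aspartate in the cytosol, had 278 and 295 TPM, against 114 and 128 TPM under IgG (1.24). In all 3 genes both antibody libraries lay above both IgG libraries, whereas the proline enzyme PYCR1 (0.07) and the mitochondrial serine enzyme SHMT2 (0.03) did not pass. SHMT1 (-0.34) and ALDH18A1 (-0.17) fell.

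Of 18 amino acid transporters, 11 rose and 2 fell (median 0.69). SLC7A11, the cystine carrier that feeds glutathione synthesis, had 74.2 and 81.5 TPM with antibody and H2O2, against 15.9 and 16.0 TPM under IgG (2.21 ± 0.09, SE, adjusted p = 4.36e-08). Its partner chain SLC3A2 had 614 and 642 TPM, against 331 and 366 TPM under IgG (0.85). The cationic amino acid carrier SLC7A1 had 93.7 and 99.2 TPM, against 40.3 and 42.3 TPM under IgG (1.2). SLC1A4 (1.61), SLC6A9 (1.44) and SLC7A5 (0.75), carriers of small neutral amino acids, glycine and large neutral amino acids, rose as well. SLC7A2 (-0.58) and SLC1A3 (-0.41) fell.

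The cytosolic tRNA synthetases split. Of 19 measured, 10 rose and 6 fell (median 0.22). GARS, for glycine, had 384 and 411 TPM with antibody and H2O2, against 222 and 204 TPM under IgG (0.90). SARS, for serine, had 342 and 359 TPM, against 209 and 206 TPM under IgG (0.75), and AARS, for alanine, had 275 and 280 TPM, against 164 and 166 TPM (0.74). FARSA, for phenylalanine, had 178 and 174 TPM, against 246 and 259 TPM under IgG (-0.52). The groups did not overlap in any of these 4 genes.

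Among 13 sestrins and other brakes of the growth kinase mTORC1, 4 rose and 1 fell (median 0.01). SESN2, which binds leucine and holds back mTORC1, had 86.4 and 97.0 TPM with antibody and H2O2, against 12.8 and 13.9 TPM under IgG (2.69 ± 0.09, SE, adjusted p = 1.09e-08). DDIT4, the inhibitor REDD1, had 480 and 459 TPM, against 141 and 86.9 TPM under IgG (2.07). The IgG libraries of DDIT4 differed more from each other than the antibody libraries did, and still lay below them. NPRL2, a subunit of the GATOR1 complex, had 21.1 and 19.4 TPM, against 27.7 and 31.7 TPM under IgG (-0.53).

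Genes of the endoplasmic reticulum and its response to unfolded proteins moved in both directions. Of 21 genes, 8 rose, 6 fell and 7 did not pass (median -0.03). The sensors ERN1 (IRE1, 0.99) and ATF6 (0.59) rose, as did XBP1, the factor that IRE1 splices, at 114 and 112 TPM against 64.4 and 63.7 TPM under IgG (0.81). HERPUD1, a component of degradation at the endoplasmic reticulum, had 82.4 and 85.1 TPM, against 52.4 and 43.7 TPM under IgG (0.80). The chaperone HSPA5 (BiP) had 809 and 860 TPM, against 579 and 540 TPM under IgG (0.58). Other proteins of the lumen, SDF2L1 (-0.90), CRELD2 (-0.51), MANF (-0.41), PDIA4 (-0.38) and CALR (-0.38), fell. SDF2L1, a partner of DNAJB11, had 61.4 and 70.1 TPM with antibody and H2O2, against 119 and 128 TPM under IgG.

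**Figure D2:**
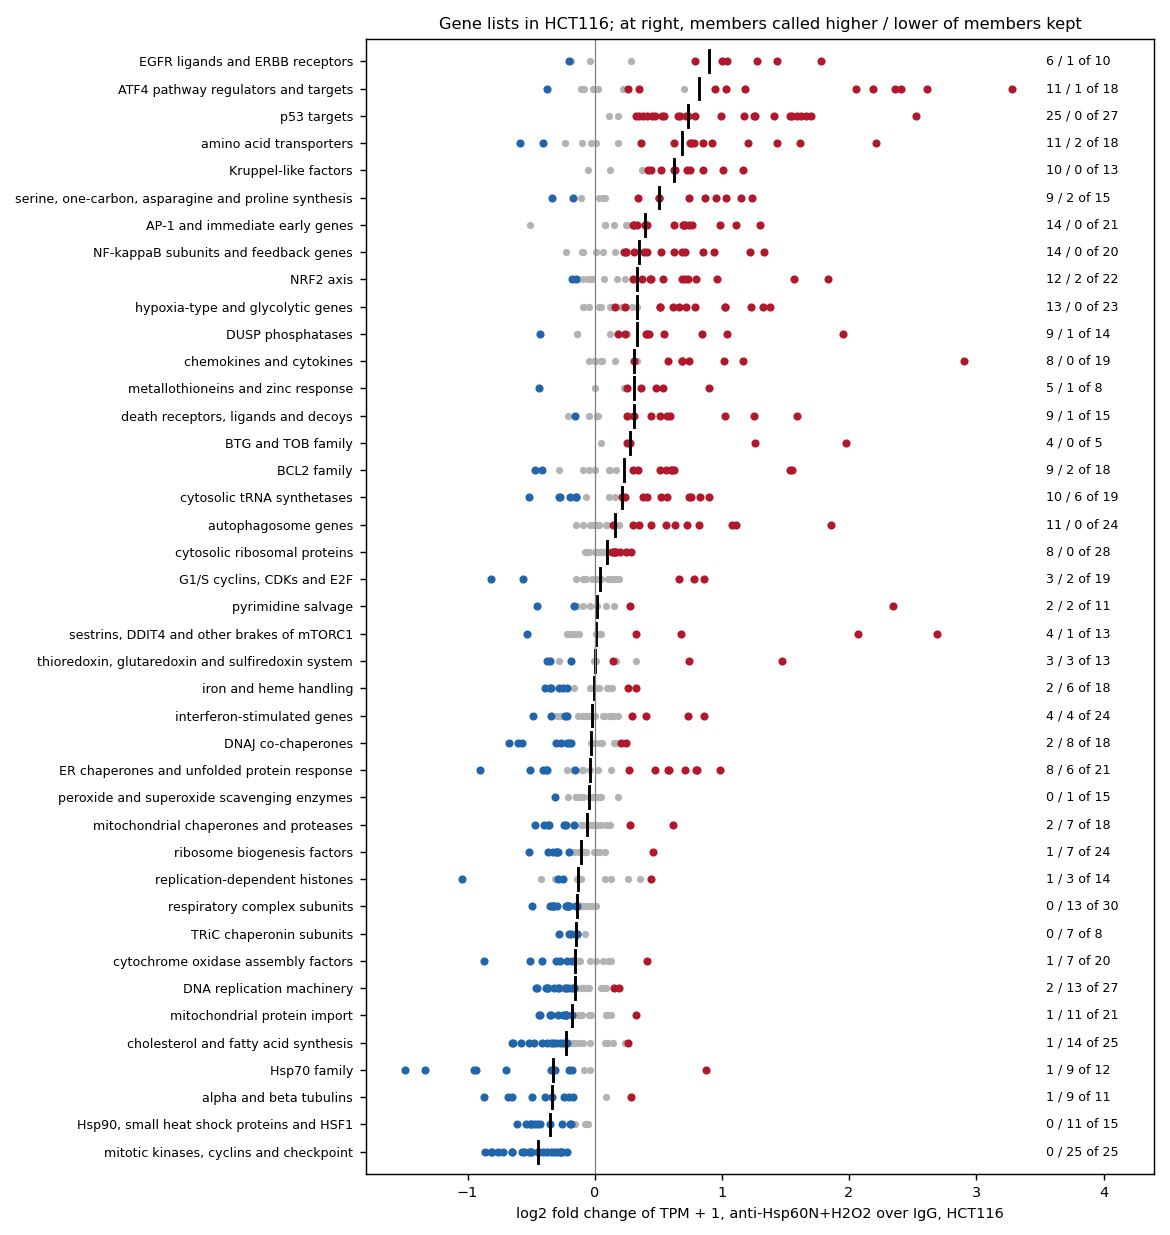
Log2 fold change of each gene of 41 lists in HCT116, anti-Hsp60N+H2O2 over IgG, with red points for genes that rose, blue for genes that fell, grey for genes that did not pass and a black bar at the median of the list. At right stand the members that rose and fell of those measured, from EGFR ligands and ERBB receptors (median 0.90) at the top to mitotic genes (median -0.45) at the bottom.

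Most genes of the Hsp70 and Hsp90 lists fell. Of 12 genes listed for the Hsp70 family, 9 fell and 1 rose (median -0.33). HSPA5 (0.58) and HSPA9 (0.28), members in the endoplasmic reticulum and in mitochondria, rose but stand in other lists. HSPA1B had 475 and 449 TPM with antibody and H2O2, against 1277 and 1326 TPM under IgG (-1.49 ± 0.07, SE, adjusted p = 2.81e-07). HSPA1A had 15.5 and 17.0 TPM, against 45.2 and 39.9 TPM under IgG (-1.34). These heat-inducible genes are near-identical copies, so the split of reads between them is uncertain, although both moved the same way. HSPA8, the constitutive Hsc70, was the most abundant of the family, at 2792 and 2558 TPM, against 5155 and 5077 TPM under IgG (-0.94 ± 0.05, SE, adjusted p = 4.54e-07). HSPA2 had 2.49 and 2.36 TPM, against 5.68 and 5.57 TPM under IgG (-0.95). HSPH1, the Hsp110 exchange factor of Hsp70, had 162 and 155 TPM, against 262 and 253 TPM (-0.70). No library of either group overlapped in these 5 genes. HSPA13, a microsomal member, rose, at 45.0 and 47.6 TPM against 25.6 and 23.9 TPM under IgG (0.88). HSPA6, strictly stress-inducible, was at 0.03 and 0.04 TPM, against 0 and 0.13 TPM under IgG.

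Of 15 genes of Hsp90, small heat shock proteins and HSF1, 11 fell and none rose (median -0.35). BAG3, a co-chaperone of Hsp70 in selective autophagy, had 97.8 and 91.2 TPM with antibody and H2O2, against 136 and 139 TPM under IgG (-0.54). STIP1, which links Hsp70 to Hsp90, had 486 and 458 TPM, against 680 and 665 TPM under IgG (-0.51), and FKBP4 had 176 and 164 TPM, against 239 and 242 TPM (-0.50). The small heat shock protein HSPB1 (-0.61), the inducible HSP90AA1 (-0.43) and HSF1 itself (-0.26) were lower too. PTGES3, HSF2, HSBP1 and CDC37 did not pass, with values between -0.16 and -0.05.

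Among 18 DNAJ co-chaperones, 8 fell and 2 rose (median -0.03). DNAJA1 had 471 and 433 TPM with antibody and H2O2, against 745 and 695 TPM under IgG (-0.67), and DNAJB1, the main partner of inducible Hsp70, had 251 and 228 TPM, against 358 and 356 TPM (-0.57). DNAJB5 had 3.59 and 3.51 TPM, against 5.95 and 5.86 TPM under IgG (-0.60). Of the 8 subunits of TRiC, the chaperonin that folds actin and tubulin, 7 fell (median -0.15). TCP1 had 448 and 449 TPM, against 563 and 527 TPM under IgG (-0.28). The steps of CCT3 (-0.15) and CCT7 (-0.19) were small, and neither passed when either antibody with H2O2 library was left out (adjusted p 0.0571 to 0.0626 for CCT3 and 0.0558 to 0.0583 for CCT7) or under quantile normalization (0.0822 and 0.0784). CCT7 also lost its call without the first IgG library and with the HCT116 libraries alone (adjusted p 0.0709 and 0.0581).

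HSPD1, which encodes Hsp60, had 1780 and 1775 TPM with antibody and H2O2, against 1965 and 1861 TPM under IgG. Both antibody libraries were lower, and the difference of -0.11 ± 0.05 (SE) did not pass (limma, adjusted p = 0.114). Its co-chaperonin HSPE1 had 606 and 594 TPM, against 869 and 722 TPM under IgG, and fell by 0.40 (adjusted p = 0.00267). HSPA9, the mitochondrial Hsp70, rose, at 604 and 613 TPM against 521 and 483 TPM under IgG (0.28). Of 18 mitochondrial chaperones and proteases, 7 fell and 2 rose (median -0.06). Besides HSPA9, the one that rose was GRPEL2, a nucleotide exchange factor of HSPA9, at 45.3 and 46.7 TPM against 28.8 and 30.7 TPM under IgG (0.61). PMPCA, a subunit of the presequence peptidase, had 117 and 116 TPM, against 154 and 169 TPM under IgG (-0.47), and the protease CLPP had 93.7 and 99.7 TPM, against 124 and 125 TPM (-0.36).

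Other nuclear genes of mitochondria leaned downward by small amounts. Of 21 genes of protein import, 11 fell and 1 rose (median -0.18), among them the outer membrane pore TOMM40, at 266 and 273 TPM against 347 and 384 TPM under IgG (-0.43). TOMM6 and TIMM22 fell by 0.35 each. Of 30 respiratory complex subunits, 13 fell and none rose (median -0.14). NDUFB10 of complex I had 339 and 344 TPM, against 488 and 476 TPM under IgG (-0.50), and NDUFS3 fell by 0.29. Of 20 assembly factors of cytochrome oxidase, 7 fell and 1 rose (median -0.15). SCO2, which delivers copper to the oxidase, had 12.6 and 12 TPM with antibody and H2O2, against 25.7 and 21.1 TPM under IgG (-0.87 ± 0.17, SE, adjusted p = 0.00284), and COA3 (-0.51) and TACO1 (-0.42) fell less far. The 2 groups of SCO2 libraries stood well apart.

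Of 22 genes of the NRF2 axis, 12 rose and 2 fell (median 0.34). HMOX1, heme oxygenase, had 176 and 181 TPM with antibody and H2O2, against 57.7 and 61.1 TPM under IgG (1.57 ± 0.06, SE, adjusted p = 4.36e-08). MAFF, a small partner of NRF2, had 29.2 and 30.3 TPM, against 8.01 and 7.29 TPM under IgG (1.83). GCLC, the catalytic subunit of glutathione synthesis, had 110 and 115 TPM, against 59.0 and 55.1 TPM under IgG (0.96), and its modifier GCLM rose by 0.71 on the log2 scale. All 4 genes had non-overlapping groups. KEAP1, which holds NRF2 back, had 109 and 108 TPM, against 117 and 124 TPM under IgG (-0.15). NQO1 (0.30) rose little, and the pentose phosphate genes PGD (-0.04) and TKT (-0.09) did not pass, while TALDO1 (-0.18) fell. The letters TGACNNNGC of the antioxidant response element, on either strand, stood in 13.6% of all promoters and in 3 of 10 risen NRF2 axis genes with a promoter in the table, namely MAFF, GCLM and ME1. They stood in 1 of 4 genes that did not pass, PGD, and in 0 of 2 fallen genes.

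The enzymes that remove peroxide moved little. Of 15 scavenging enzymes none rose and SOD2, the mitochondrial superoxide dismutase, fell, with 107 and 97.8 TPM against 125 and 129 TPM under IgG (-0.31). Catalase (CAT) was at -0.14 and PRDX1 at 0.05, and neither passed. In the thioredoxin system 3 of 13 genes rose and 3 fell (median 0.00), where 16.8% of all genes rose and 17.6% fell. TXNRD1, thioredoxin reductase, had 721 and 741 TPM with antibody and H2O2, against 266 and 260 TPM under IgG (1.47 ± 0.06, SE, adjusted p = 5.36e-08). SRXN1, which repairs overoxidised peroxiredoxins, had 239 and 246 TPM, against 144 and 146 TPM under IgG (0.74). NXN, a thioredoxin-like protein, had 72.7 and 67.1 TPM, against 85.9 and 93.0 TPM under IgG (-0.35).

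For iron and heme, 2 of 18 genes rose and 6 fell (median -0.01), where 16.8% of all genes rose and 17.6% fell. FTH1, the ferritin heavy chain, had 5854 and 5813 TPM, against 4795 and 4514 TPM under IgG (0.33), whereas the light chain FTL did not pass (0.10, limma, adjusted p = 0.0907). ALAS1, the first enzyme of heme synthesis, rose by 0.26 on the log2 scale, and CPOX, a later one, fell by 0.35. Of 8 metallothionein and zinc response genes, 5 rose and 1 fell (median 0.31). The zinc exporter SLC30A1 had 30.8 and 32.7 TPM with antibody and H2O2, against 16.0 and 17.2 TPM under IgG (0.90), and the zinc sensor MTF1 (0.48) and MT1E (0.36) rose with it. The metallothioneins are near-identical copies, so reads may be split among them unevenly.

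The listed p53 targets rose almost without exception. The list was chosen with earlier results of these data known, so its counts speak for these genes alone. Of 27 measured, 25 rose and none fell (median 0.73), where 16.8% of all genes rose, and BAX (0.11) and CCNG1 (0.18) did not pass, except that BAX passed under quantile normalization (0.19, adjusted p = 0.0263). GDF15, a secreted stress hormone also placed under ATF4, had 666 and 777 TPM with antibody and H2O2, against 141 and 109 TPM under IgG (2.52 ± 0.11, SE, adjusted p = 7.22e-08). CDKN1A, which encodes the CDK inhibitor p21, had 591 and 615 TPM, against 186 and 195 TPM under IgG (1.66 ± 0.04, SE, adjusted p = 2.61e-09). MDM2, the ligase that removes p53, had 121 and 128 TPM, against 53.3 and 56.2 TPM under IgG (1.17). None of these groups overlapped. GADD45A, of growth arrest, rose by 1.62 on the log2 scale and TP53INP1 by 1.70.

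Death genes of both signs moved. Of 18 members of the BCL2 family, 9 rose and 2 fell (median 0.23). The killers PMAIP1 (NOXA), at 124 and 132 TPM against 47.7 and 38.8 TPM under IgG (1.55), and BBC3 (PUMA), at 38.9 and 47.5 TPM against 14.5 and 13.8 TPM (1.54), rose most. The survival genes MCL1 (0.56), BCL2L1 (0.62) and BCL2L2 (0.51) rose too, and BAD (-0.47) fell. Of 15 death receptors, ligands and decoys, 9 rose and 1 fell (median 0.31). TNFRSF10B, the TRAIL receptor DR5, had 205 and 223 TPM, against 68.1 and 72.4 TPM under IgG (1.59 ± 0.05, SE, adjusted p = 1.12e-08). FAS had 35.7 and 41.4 TPM, against 16.9 and 14.3 TPM under IgG (1.25). The decoy TNFRSF10D (0.52) and the caspase-8 inhibitor CFLAR (0.59) rose beside them. The adaptor FADD fell by 0.16.

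All 25 mitotic genes of the list fell (median -0.45), where 17.6% of all genes fell. PLK1, a kinase of mitotic entry, had 161 and 146 TPM with antibody and H2O2, against 275 and 284 TPM under IgG (-0.86 ± 0.05, SE, adjusted p = 1.69e-06). CDC20, which activates the anaphase-promoting complex, had 406 and 375 TPM, against 628 and 698 TPM under IgG (-0.76). BIRC5, survivin, had 125 and 120 TPM, against 187 and 197 TPM (-0.65). The groups of all 3 genes were clearly apart. KIF20A (-0.82), AURKA (-0.80) and CCNB1 (-0.72) fell by similar amounts, and CDK1 fell least but for CDC25C (-0.26 and -0.22), with an adjusted p of 0.0605 for CDK1 without the first antibody with H2O2 library. PSRC1 (-0.98) and CDCA3 (-0.88), of the mitotic spindle and of mitotic entry, were among the lowest of all genes.

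Of 27 DNA replication genes, 13 fell and 2 rose (median -0.15). GINS2 of the replicative helicase had 91.8 and 92.1 TPM, against 126 and 128 TPM under IgG (-0.46), RFC5 of the clamp loader had 83.2 and 82.9 TPM, against 109 and 108 TPM (-0.38), and MCM4 fell by 0.37. MCM2 (-0.16) and the sliding clamp PCNA (0.19) passed narrowly. MCM2 lost its call without the second IgG library or either antibody with H2O2 library (adjusted p 0.24, 0.118 and 0.137), without either MDA-MB-231 IgG+H2O2 library (0.0564), with the HCT116 libraries alone (0.0954) and under quantile normalization (0.226). PCNA lost its call without the second IgG library, without the second antibody with H2O2 library or with the HCT116 libraries alone (adjusted p 0.0939, 0.126 and 0.0839). Of 19 genes of the G1/S step, 3 rose and 2 fell (median 0.04), where 16.8% of all genes rose and 17.6% fell. The repressor E2F7 had 30.7 and 32.8 TPM, against 17.0 and 17.1 TPM under IgG (0.86), while the inhibitor CDKN2C had 9.82 and 8.54 TPM, against 17.8 and 16.1 TPM (-0.82), and cyclin CCND3 fell by 0.56. Of 14 histone genes, 1 rose and 3 fell, beside the same shares of all genes. HIST1H2BJ fell furthest, at 0.56 and 0.33 TPM against 3.24 and 1.07 TPM under IgG (-1.04). Its values were low, its IgG libraries lay far apart, and it was not followed through the alternative analyses. The riser, H1F0 (0.45), is a linker histone not tied to replication, and HIST1H1C (-0.29) and HIST1H2BK (-0.25) lost their calls without the first antibody with H2O2 library (adjusted p 0.096 and 0.0506), as HIST1H1C also did without the second IgG library (0.112) and with the HCT116 libraries alone (0.0682).

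Several lists of signalling genes held more risen than fallen members. Of 21 AP-1 and immediate early genes, 14 rose and none fell (median 0.40). JUN had 26.2 and 29.0 TPM with antibody and H2O2, against 12.6 and 9.0 TPM under IgG (1.30), and FOSL1, its partner FRA1, had 338 and 343 TPM, against 171 and 173 TPM (0.98). FOS (0.08) and EGR1 (0.08), which respond within minutes to many stimuli, did not pass. CTGF, a YAP target, had 3.30 and 3.54 TPM, against 1.26 and 0.85 TPM under IgG (1.11), IER2 rose by 0.63 on the log2 scale and MYC by 0.40. Of 14 DUSP phosphatases, which switch off MAP kinases, 9 rose and 1 fell (median 0.33). DUSP5, specific for ERK, had 243 and 237 TPM, against 61.6 and 61.2 TPM under IgG (1.95 ± 0.05, SE, adjusted p = 1.06e-09). DUSP1 (1.04) and DUSP6 (0.84) followed.

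Of the antiproliferative BTG and TOB family, 4 of 5 rose (median 0.28). BTG1 had 34.0 and 36.0 TPM, against 8.70 and 7.65 TPM under IgG (1.97), and BTG2 had 50.7 and 52.4 TPM, against 20.0 and 21.9 TPM (1.26). TOB2 (0.25) lost its call without the first antibody with H2O2 library (adjusted p = 0.0911). Of 13 Krüppel-like factors, 10 rose (median 0.63), among them the intestinal regulators KLF5, at 77.4 and 79.8 TPM against 35.2 and 33.7 TPM under IgG (1.17), and KLF4, at 29.3 and 27.6 TPM against 13.9 and 13.4 TPM (1.01). KLF3 rose by 0.72 on the log2 scale.

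Of 20 NF-κB subunits and feedback genes, 14 rose and none fell (median 0.35). RELB had 22.3 and 26.9 TPM with antibody and H2O2, against 8.75 and 9.5 TPM under IgG (1.33). BIRC3, an inhibitor of apoptosis, had 3.97 and 4.11 TPM, against 1.21 and 1.11 TPM (1.22), and TNIP1, a brake on NF-κB, rose by 0.69. Of 19 chemokines and cytokines, 8 rose (median 0.31). IL8, a neutrophil attractant, had 8.69 and 11.5 TPM, against 0.45 and 0.49 TPM under IgG (2.91 ± 0.11, SE, adjusted p = 4.05e-08). LIF had 82.6 and 79.1 TPM, against 46.4 and 53.7 TPM (0.68). CXCL2, at 1.39 and 2.0 TPM against 0.76 and 0.84 TPM (0.57), lost its call with the HCT116 libraries alone (adjusted p = 0.0539). IL6 (0.06) and IL1B (0.05) did not pass.

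The EGFR ligand list had the highest median of all lists (0.90), with 6 of 10 genes up and 1 down. AREG had 1049 and 1174 TPM with antibody and H2O2, against 449 and 376 TPM under IgG (1.43), and HBEGF had 28.1 and 27.0 TPM, against 6.89 and 7.80 TPM (1.78 ± 0.08, SE, adjusted p = 7.22e-08). TGFA had 53.7 and 53.1 TPM, against 25.7 and 25.3 TPM (1.04), and EREG rose by 1.0 on the log2 scale. The groups did not overlap in any ligand named here. The receptor EGFR (0.79) and its feedback inhibitor ERRFI1 (1.27) rose with the ligands, and ERBB2 (-0.20) fell.

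In the lists of lipid synthesis, tubulins and ribosome biogenesis, more genes fell than rose. Of 25 genes of cholesterol and fatty acid synthesis, 14 fell and 1 rose (median -0.22). MVD of the mevalonate pathway had 51.3 and 57.1 TPM with antibody and H2O2, against 86.0 and 84.6 TPM under IgG (-0.65). NSDHL, of the later steps to cholesterol, had 38.6 and 36.4 TPM, against 53.4 and 51.9 TPM (-0.48). The groups of both genes were apart. Of 11 tubulins, 9 fell and 1 rose (median -0.33). TUBB4B had 924 and 911 TPM, against 1475 and 1470 TPM under IgG (-0.68), TUBB4A had 24.7 and 23.3 TPM, against 44.7 and 44.6 TPM (-0.87), and TUBA4A fell by 0.65. Tubulin genes are close in sequence, so their reads may be shared. Of 24 ribosome biogenesis factors, 7 fell and 1, RRP12 (0.46), rose (median -0.11), with BOP1 at -0.52 and PES1 at -0.33. Cytosolic ribosomal proteins showed a small opposite shift, with 8 of 28 up and none down (median 0.10). RPL3 had 4058 and 3873 TPM, against 3168 and 3326 TPM under IgG (0.29). RPL10A (0.20) and RPL4 (0.25) were also higher, but RPL4 did not pass under quantile normalization (adjusted p = 0.0543).

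Of 24 autophagosome genes, 11 rose and none fell (median 0.16). MAP1LC3B, which coats autophagosomes, had 230 and 248 TPM with antibody and H2O2, against 70.6 and 60.3 TPM under IgG (1.86 ± 0.07, SE, adjusted p = 4.36e-08). OPTN (1.11) and GABARAPL1 (1.08), a cargo receptor and a relative of LC3, rose as well. Of 23 hypoxia-type and glycolytic genes, 13 rose and none fell (median 0.33). VEGFA had 66.2 and 70.7 TPM, against 30.6 and 26.7 TPM under IgG (1.23). NDRG1 had 401 and 324 TPM, against 172 and 120 TPM (1.32), with the first library above the second in both groups, and SLC2A1, a glucose carrier, rose by 0.62 on the log2 scale. In pyrimidine salvage UPP1, uridine phosphorylase, stood out of a list with 2 genes up and 2 down of 11 (median 0.02), at 78.1 and 97.0 TPM against 16.3 TPM in both IgG libraries (2.34). UCK1 fell by 0.45, and CDA (0.28) lost its call without the second IgG or the first antibody with H2O2 library and with the HCT116 libraries alone (adjusted p 0.108, 0.128 and 0.0955). The 24 interferon-stimulated genes gave 4 up and 4 down (median -0.02), where 16.8% of all genes rose and 17.6% fell. Among them stood IRF7 at 0.74, ISG20 at 0.86 and IFIT1 at -0.49. ISG20 lost its call with the HCT116 libraries alone (adjusted p = 0.0645).

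Among the 15 highest changes that belong to no list was LAMB3, a laminin chain of epithelial basement membrane, at 118 and 122 TPM with antibody and H2O2, against 25.2 and 25.1 TPM under IgG (2.22 ± 0.05, SE, adjusted p = 6.48e-10). SLFN5 had 34.7 and 38.3 TPM, against 6.13 and 7.01 TPM under IgG (2.31). TSC22D3, the glucocorticoid-induced leucine zipper, had 32.8 and 34.7 TPM, against 7.42 and 6.67 TPM (2.11). Each of these genes was well separated between groups. FAM171A2, among the lowest, had 4.92 and 5.49 TPM, against 11.3 and 11.8 TPM under IgG (-1.01).

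Some of the largest changes were fragile. RPL21, a ribosomal protein gene with many near-identical copies, was at 41.5 and 94.9 TPM with antibody and H2O2 and at 48.6 and 0 TPM under IgG+H2O2, and was listed at 0 in both IgG libraries. It lost its call without either IgG library or either antibody with H2O2 library (adjusted p 0.0773 to 0.143), without either MDA-MB-231 IgG library (0.0515), with no filter on low values (0.0757), with robust moderation (0.116) and with the HCT116 libraries alone (0.0919). LOC642423 had 2.04 and 0.04 TPM, against 2.67 and 10.6 TPM under IgG (-1.88), and lost its call without either the second antibody with H2O2 or the second IgG library (adjusted p = 0.245 in both), with no filter (0.0741), with robust moderation (0.11) and with the HCT116 libraries alone (0.161). HBA2, an alpha globin gene, had 2.19 and 2.60 TPM, against 5.04 and 7.49 TPM (-1.08), while its near-identical copy HBA1 had 3.58 and 4.18 TPM, against 1.99 and 0.35 TPM (1.28, adjusted p = 0.058). HBA2 lost its call without the second IgG or either antibody with H2O2 library (adjusted p 0.174, 0.126 and 0.0815), with no filter (0.0661), with robust moderation (0.0626) and with the HCT116 libraries alone (0.189). BHLHA15 had 4.31 and 2.61 TPM, against 6.68 and 7.75 TPM (-0.90), and lost its call without either IgG or the second antibody with H2O2 library (adjusted p 0.0586, 0.125 and 0.195), with no filter (0.0609) and with a pseudocount of 0.1 (0.34). TMEM160 had 13.3 and 19.3 TPM, against 32.5 and 29.8 TPM (-0.92), and did not pass with the HCT116 libraries alone (adjusted p = 0.0704).

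The group given IgG+H2O2 received the same peroxide without anti-Hsp60N. Both comparisons share the 2 IgG libraries, so their values are only set side by side. Of 13902 genes, 4584 (33.0%) differed between IgG+H2O2 and IgG, 2152 (15.5%) higher and 2432 (17.5%) lower, and leaving out the first or the second IgG+H2O2 library left 1575 or 1553 lower. CHAC1 changed by 3.28 with antibody and H2O2 and by 3.40 with IgG+H2O2. CDKN1A changed by 1.66 with antibody and H2O2 and by 1.65 with IgG+H2O2, and HMOX1 by 1.57 and by 1.53. Among the genes that fell, HSPA8 was at -0.94 with antibody and H2O2 and at -0.90 with IgG+H2O2, and PLK1 at -0.86 and at -0.89. The median of the ATF4 list was 0.82 with antibody and H2O2 and 0.80 with IgG+H2O2, and that of p53 targets 0.73 and 0.82. The median of mitotic genes was -0.45 with antibody and H2O2 and -0.53 with IgG+H2O2, and that of the Hsp70 list -0.33 and -0.38. Other medians lay further apart. That of chemokines and cytokines was 0.31 with antibody and H2O2 and 0.07 with IgG+H2O2. That of Krüppel-like factors was 0.63 and 0.46, and that of death receptors, ligands and decoys 0.31 and 0.43. Gene by gene, the median difference of antibody with H2O2 over IgG+H2O2 was 0.0 for the chemokine list and 0.0005 for the death receptor list. For the Krüppel-like factors it was 0.11. A gap between list medians is therefore not the median difference gene by gene. No list was tested as a set for an effect of the antibody.

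Tested directly under the same peroxide, antibody with H2O2 against IgG+H2O2 gave 0 genes (0.0%) higher and 1 gene (0.00719%) lower by limma, with 712 genes (5.12%) at an unadjusted p under 0.05. The gene was APOC1, an apolipoprotein, at 0.30 and 0.35 TPM with antibody and H2O2, against 1.41 and 1.17 TPM under IgG+H2O2 (-0.79, adjusted p = 0.0117). Its level under IgG, 0.35 and 0.38 TPM, was that of the antibody libraries, and its call was lost without either antibody with H2O2 library and without the first IgG+H2O2 library. No gene was lower, APOC1 included, with a pseudocount of 5, with the replicate block or with the 6 HCT116 libraries alone. The count of lower genes ranged from 0 to 3 as single libraries were left out, with 3 without the second IgG+H2O2 library, and that of higher genes was 1 without either IgG+H2O2 library or without the second antibody with H2O2 library. No member of the 45 lists passed. Some lists still leaned to 1 side of 0, beside a median of 0.0089 over all genes. Above 0 were 10 of 10 genes of the EGFR ligand list, 23 of 25 mitotic genes and 20 of 23 hypoxia-type and glycolytic genes. Their medians were 0.09, 0.06 and 0.11. In other lists fewer were above 0, with 9 of 30 respiratory complex subunits and 3 of 14 histone genes. These leanings were not tested. The interval of this difference bounds what 2 libraries a group could show, with a median half-width of 0.19 on the log2 scale (95% interval). HSPD1 differed by 0.08, with an interval from -0.03 to 0.18, CHAC1 by -0.12 (-0.33 to 0.10), CDKN1A by 0.01 (-0.09 to 0.11), HSPA8 by -0.04 (-0.15 to 0.07) and PLK1 by 0.03 (-0.09 to 0.15). IL8 was the widest apart of the 15 genes of largest rise other than RPL21, at 8.69 and 11.5 TPM with antibody and H2O2, against 6.78 and 8.10 TPM under IgG+H2O2, a difference of 0.39 (0.15 to 0.63) that did not pass adjustment. A p that misses the threshold does not show that both treatments act alike.

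**Figure D3:**
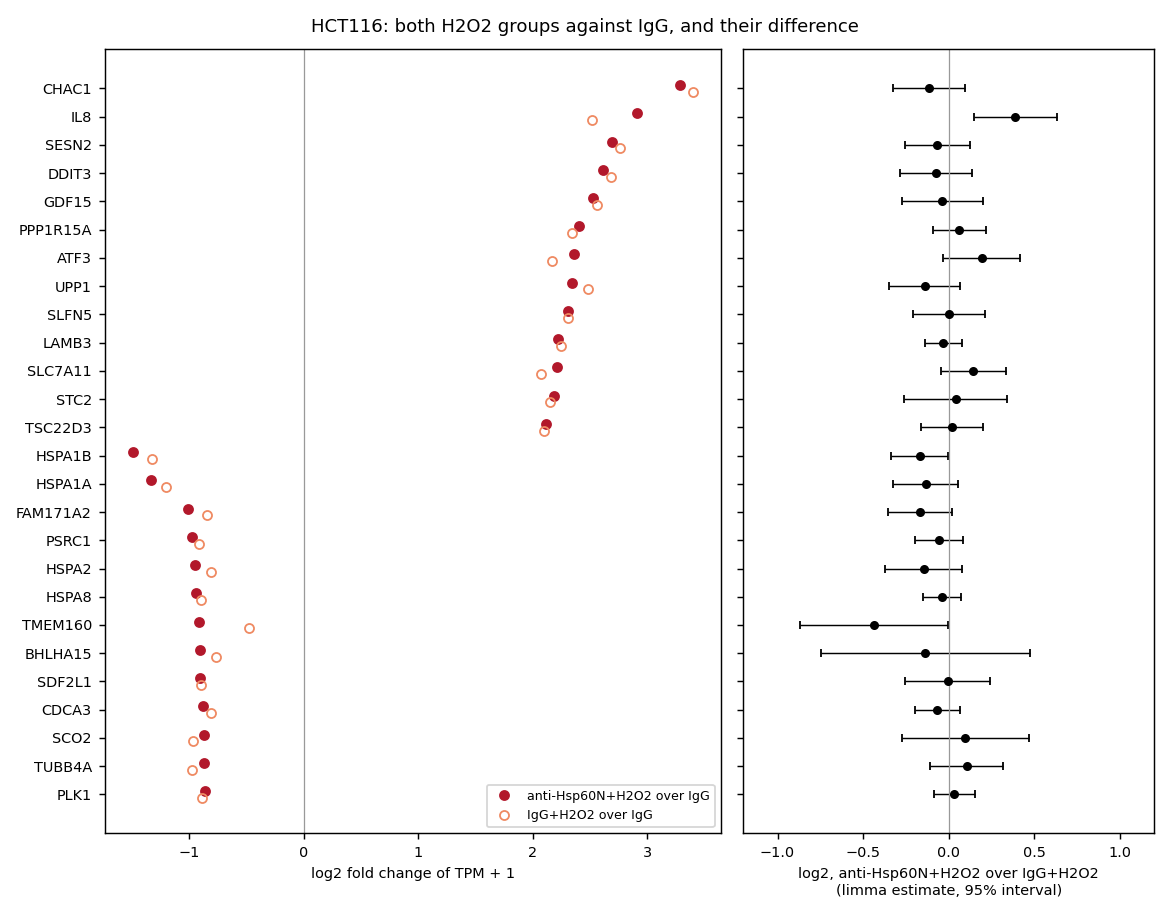
Left, log2 fold change against IgG in HCT116 of anti-Hsp60N+H2O2 (filled) and IgG+H2O2 (open) for leading genes, RPL21, LOC642423 and HBA2 not drawn. Right, the difference anti-Hsp60N+H2O2 minus IgG+H2O2 with its 95% interval from limma, which runs from 0.15 to 0.63 for IL8 and from -0.33 to 0.10 for CHAC1.

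The same treatment moved fewer genes in MDA-MB-231, where antibody with H2O2 against IgG gave 473 genes (3.4%), 210 (1.51%) higher and 263 (1.89%) lower. The difference of the change between lines, HCT116 minus MDA-MB-231, passed for 2961 genes (21.3%), with 1521 (10.9%) above 0 and 1440 (10.4%) below 0. These counts fell to 961 above 0 without the second MDA-MB-231 IgG library and to 862 below 0 without the second MDA-MB-231 antibody with H2O2 library. Leaving out the first or the second HCT116 antibody with H2O2 library gave 1013 or 986 above 0 and 888 or 895 below 0, and leaving out the second MDA-MB-231 antibody with H2O2 library gave 996 above 0. In both lines 275 genes passed, of which 75 rose in both, 137 fell in both and 63 moved in opposite directions.

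**Figure D4:**
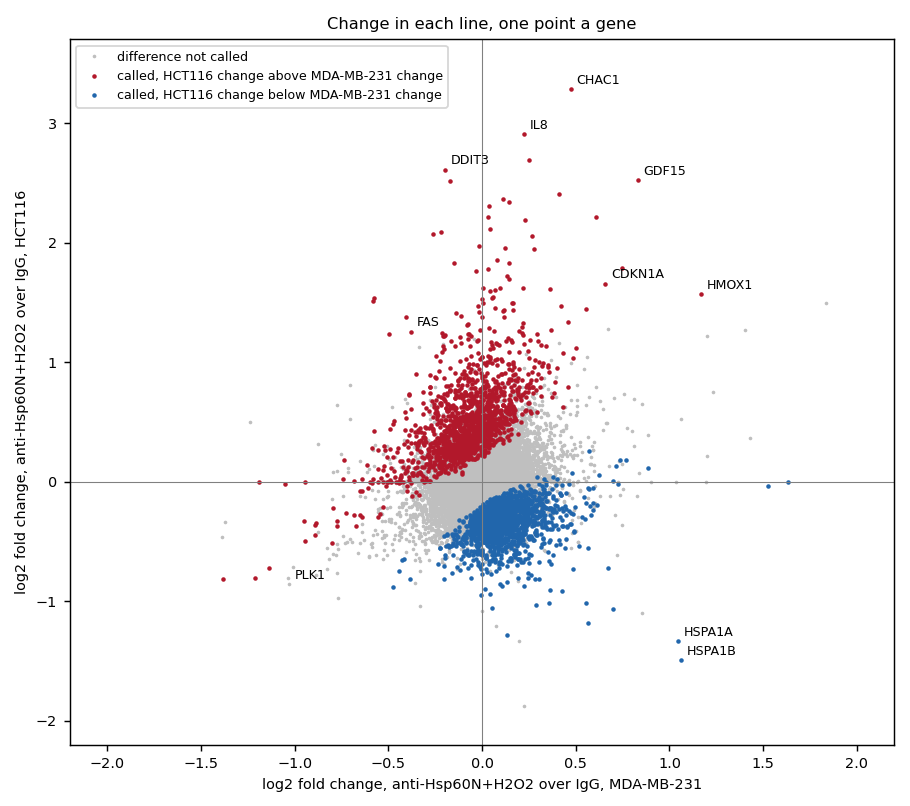
Log2 fold change of anti-Hsp60N+H2O2 over IgG in MDA-MB-231 (horizontal) and HCT116 (vertical), 1 point a gene, with 2 of 13902 genes outside the axes. Coloured points passed the test of the difference between lines, 1521 above 0 (red) and 1440 below 0 (blue), among them CHAC1 at the top and HSPA1A and HSPA1B at the lower right.

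Several ATF4 targets differed widely between the lines. CHAC1, at 11.1 and 10.0 TPM with antibody and H2O2 against 8.05 and 6.62 TPM under IgG in MDA-MB-231, changed there by 0.47, and the difference between lines was 2.81 ± 0.14 (SE, limma, adjusted p = 7.87e-07). DDIT3, at 41.8 and 35.4 TPM against 43.5 and 45.1 TPM under IgG in MDA-MB-231, did not pass there (-0.20), and its difference was 2.81. IL8, whose difference was 2.68, stood far higher in MDA-MB-231 in either state, at 292 and 279 TPM with antibody and H2O2, against 234 and 256 TPM under IgG. SESN2 differed by 2.44. Of 27 p53 targets, the difference passed above 0 for 24 and below 0 for none. Among all genes it passed above 0 for 10.9% and below 0 for 10.4%. In MDA-MB-231, 2 rose and 2 fell, CDKN1A (0.66) and GDF15 (0.83) up, FAS (-0.38) and CCNG1 (-0.40) down. Of all genes there, 1.51% rose and 1.89% fell.

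The inducible Hsp70 genes went in opposite directions. HSPA1B in MDA-MB-231 had 401 and 452 TPM with antibody and H2O2, against 193 and 213 TPM under IgG (1.06), and differed between lines by -2.56 ± 0.11 (SE, limma, adjusted p = 2.88e-07). HSPA1A had 215 and 247 TPM, against 107 and 116 TPM (1.05), a difference of -2.38. HSPA6, near 0 in HCT116, was at 3.5 and 3.68 TPM with antibody and H2O2 in MDA-MB-231, against 0.58 and 0.61 TPM under IgG (1.52). Of the Hsp90 list, the difference passed below 0 for 10 of 15 genes, as it did for 10.4% of all genes. No gene of that list passed within MDA-MB-231. FAM171A2 (-1.37), TMEM160 (-1.34) and BHLHA15 (-1.27) completed the 5 largest negative differences, of which BHLHA15 lost its call in 13 alternative analyses, with adjusted p between 0.0552 and 0.181.

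Mitotic genes fell in both lines. In MDA-MB-231, 21 of 25 fell (median -0.56), where 1.89% of all genes fell. PLK1 had 83.7 and 85.9 TPM there, against 172 and 176 TPM under IgG (-1.03). The difference for PLK1, 0.17, did not pass (adjusted p = 0.137). Over the list of 25, the difference passed for 8 genes that fell less in HCT116 and for 2 that fell further. DNA replication genes parted. In HCT116, 2 of 27 rose and 13 fell (median -0.15), where 16.8% of all genes rose and 17.6% fell. In MDA-MB-231, 12 rose and 1 fell (median 0.19), where 1.51% of all genes rose and 1.89% fell. The difference between lines passed below 0 for 16 of the 27, as it did for 10.4% of all genes. GINS2 had 49.3 and 45.6 TPM with antibody and H2O2 in MDA-MB-231, against 40.3 and 39.4 TPM under IgG (0.25), and differed between lines by -0.71. HMOX1 rose in both lines, by 1.57 in HCT116 and by 1.17 in MDA-MB-231, where it had 72.1 and 64.1 TPM, against 29.3 and 30.2 TPM under IgG. That difference of 0.40 passed (adjusted p = 0.00916).

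**Figure D5:**
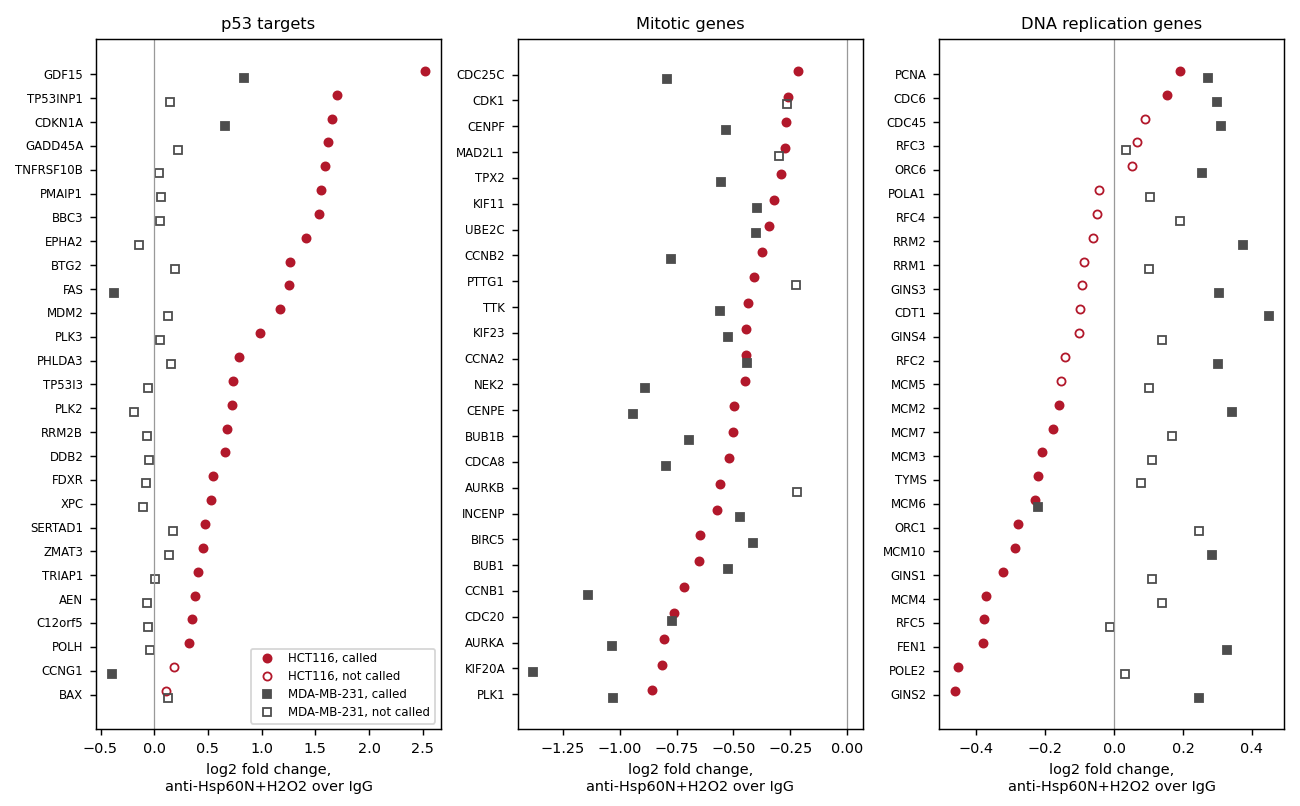
Log2 fold change of anti-Hsp60N+H2O2 over IgG for each listed p53 target, mitotic gene and DNA replication gene in HCT116 (red circles) and MDA-MB-231 (grey squares), filled where the gene passed within the line. In HCT116, 25 of 27 p53 targets rose, all 25 mitotic genes fell and 13 of 27 replication genes fell, whereas in MDA-MB-231 these counts were 2, 21 and 1. Of all genes, 16.8% rose and 17.6% fell in HCT116, and 1.51% rose and 1.89% fell in MDA-MB-231.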

How the data were processed

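The authors deposited 1 table of TPM per gene, made from total RNA with bcl2fastq 2.20, STAR and RSEM on hg19, per the submitters' processing notes. The sources used here give neither the versions of STAR and RSEM nor the annotation or the use of strand. All 12 columns were matched to samples by name, and 0 columns had no sample. TPM keeps no read counts, so the depth of each library and counting intervals are unknown.

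Genes with at least 1 TPM in at least 2 of 12 libraries (13956) were kept, and log2(TPM + 1) was fitted with limma 3.58.1 in R 4.3.3 (trend, 6 group means, 6 residual and 4.63 prior degrees of freedom). P-values were adjusted by Benjamini-Hochberg over all of these, and the 54 small RNA genes were then left out, leaving 13902. Antibody with H2O2 was compared with IgG, with IgG+H2O2, and between lines. The fit was tested on simulated data.

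The 45 gene lists and the comparison itself were chosen with earlier results of these data known. Of their 804 distinct symbols, 45 were matched by an older symbol and 2 were not matched, and 763 were kept. Named by rule were 15 genes in each direction, those of largest change that passed, averaged 5 TPM or more in either group and did not overlap, HSPD1, up to 3 members of smallest p from each list, and in the other comparisons up to 5 genes in each direction. Other genes were named after their values were seen, and some genes that these choices took in are not reported here. Alternatives changed the pseudocount, filter, scaling, moderation, libraries and replicate block. Figures were drawn with matplotlib 3.10.9 in Python 3.11.15.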

Additional observations from a re-analysis of the deposited data

Results flagged for a closer look

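The change of antibody with H2O2 against IgG differed between the lines by limma's test of the difference, HCT116 minus MDA-MB-231, for 1521 genes above 0 and 1440 genes below 0. Line and culture medium differ together and cannot be told apart.

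Among genes of large change in HCT116, the difference was 2.81 on the log2 scale for CHAC1, 2.81 for DDIT3, 2.68 for IL8 and 2.44 for SESN2. It was -2.56 for HSPA1B, -2.38 for HSPA1A, -1.37 for FAM171A2, -1.34 for TMEM160 and -1.27 for BHLHA15. BHLHA15 stood at 1.13 and 0.18 TPM with antibody and H2O2 in MDA-MB-231, against 0 and 0.52 TPM under IgG, so its difference rests on low values.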

How the results depend on the processing

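Of 196 genes, each followed through 21 or 22 alternatives, 189 were called. Of these, 167 kept their call in every alternative run for them, and none changed direction. HSPA6, not called, was at -0.04 and moved to 0.05 without the second HCT116 IgG library. Leaving out single libraries gave 1527 to 2373 genes higher and 1419 to 2435 lower for antibody with H2O2 against IgG, 345 to 435 list members called (431 with all libraries), 1437 to 2211 higher and 1553 to 2431 lower for IgG+H2O2 against IgG, and 961 to 1566 above 0 and 862 to 1651 below 0 for the difference between lines. Against IgG+H2O2, the same gave 0 to 1 higher and 0 to 3 lower. There, the count of higher genes was 1 with no filter on low values, with a pseudocount of 5 and with robust moderation. The count of lower genes was 0 with a pseudocount of 5, 0 with the replicate block, 2 with robust moderation and 0 with the 6 HCT116 libraries alone. The cause of these moves was not tested. Fits that leave libraries out also have fewer samples.

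Same-numbered libraries did not deviate together in HCT116 (r across genes 0.055 for antibody with H2O2 and IgG, 0.046 for antibody with H2O2 and IgG+H2O2, -0.127 for IgG+H2O2 and IgG). In pairs with MDA-MB-231 libraries r reached 0.172 for the antibody groups of both lines, and within MDA-MB-231 it was 0.164 for antibody with H2O2 and IgG and 0.104 for IgG+H2O2 and IgG. The labels tie no numbers together and most pairs had lower r, so the numbers were not taken as pairs. With the replicate block, antibody with H2O2 against IgG gave 2256 higher and 2325 lower, IgG+H2O2 against IgG 2076 and 2311, and the difference between lines 1366 above 0 and 1330 below 0. A crossed pairing of IgG+H2O2 and IgG, chosen after seeing the data, gave 2225 higher and 2560 lower.

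Quantile normalization gave 2274 higher and 2648 lower, and median-of-ratios scaling 2390 and 2583. Of 1980 list counts, 1829 were within 1.5 times their value, and 12 of 990 list medians changed sign, in 6 lists with medians near 0. With 2 libraries a group and no read depth, small changes of low genes are the least certain.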

Other observations

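Families outside the lists were looked at after their values had been seen, so they are described without a test of the family. In the urokinase system of plasminogen activation, 4 of 6 genes rose with antibody and H2O2 against IgG in HCT116 (median 0.69), where 16.8% of all genes rose. PLAU, urokinase, had 51.1 and 50.03 TPM with antibody and H2O2, against 22.4 and 19.4 TPM under IgG (1.24). Its receptor PLAUR had 139 and 132 TPM, against 59.6 and 58.9 TPM under IgG (1.18). No gene of the system passed in MDA-MB-231. Of 15 laminin and integrin subunits, which anchor epithelial cells to basement membrane, 8 rose and none fell (median 0.23). LAMA3 had 12.4 and 13.9 TPM, against 5.53 and 4.99 TPM under IgG (1.17), and ITGA2 had 28.0 and 27.2 TPM, against 11.8 TPM in both IgG libraries (1.16).

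Of 8 ligands of the natural killer receptor NKG2D, 3 rose (median -0.02). ULBP1 had 14 and 16.5 TPM with antibody and H2O2, against 4.87 and 4.80 TPM under IgG (1.47), and RAET1L had 4.83 and 7.15 TPM, against 1.31 and 1.53 TPM (1.51). Proteasome subunits were lower in 10 of 31 and higher in 1 (median -0.13), and of 14 V-ATPase subunits, which acidify lysosomes, 4 fell and 1 rose (median -0.10), where 17.6% of all genes fell and 16.8% rose. With IgG+H2O2, which shares the IgG libraries, 13 proteasome subunits fell and none rose.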
